A study of Homo sapiens with 4 samples.

Results

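The tubulin isotype genes of DaroR cells were examined in 4 RNA sequencing libraries. The members were chosen by name, as 4 alpha-tubulin genes (TUBA1A, TUBA1B, TUBA1C and TUBA4A) and 6 beta-tubulin genes (TUBB, TUBB2A, TUBB2B, TUBB3, TUBB4B and TUBB6), which are 10 of the 60606 genes of the count table. Of these, 9 passed the filter on low counts, as did 19349 genes in all, and TUBB2B did not. DaroR is a line made resistant to the antiandrogen darolutamide from LNCaP, an androgen receptor-positive prostate cancer cell line, and it was kept in medium with darolutamide, so that both groups carried the resistance and the drug. The siControl group was transfected with control siRNA and the siLOC730101 group with a pool of siRNAs against the long non-coding RNA LOC730101, with 2 libraries in each group. Whether DaroR is 1 clone, and the time from transfection to RNA, are not given in the sources used here. No label says that the 2 libraries of a group came from separate cultures, so that p-values measure the spread between these libraries, which may be technical.

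Microtubules are built from dimers of alpha- and beta-tubulin. Mammals carry several genes for each subunit, and the proteins they encode differ most in their C-terminal tails, which face outward and carry the modifications that motor proteins and other partners read. Most alpha-tubulins end in a tyrosine that vasohibins remove and tubulin tyrosine ligase restores. Cells adjust tubulin RNA to the pool of free dimers: when free tubulin is high, the factor TTC5 binds the first residues of new tubulin chains on the ribosome and the RNA is degraded. TUBA1A and TUBB3 are best known from neurons, TUBB2A and TUBB2B are also high in brain, and TUBA1B, TUBA1C, TUBB and TUBB4B are expressed widely. TUBB3 has also been studied in tumors treated with taxanes, drugs that bind beta-tubulin.

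The last 30 coding bases of 8 members are shown because they encode the end of the C-terminal tail, where the isotypes differ most. They were read from the GRCh37 genome at the MANE Select transcript of GENCODE release 44, with the last codon before the stop codon in capitals.

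TUBA1C, chr12:49666978-49667007, plus strand: gctgacggagaggatgagggtgaagagTAT

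TUBA4A, chr2:220115077-220115106, minus strand: tcctatgaggacgaggatgagggagaaGAA

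TUBB, chr6:30692142-30692171, plus strand: gatttcggtgaggaggccgaagaggagGCC

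TUBB2A, chr6:3154100-3154129, minus strand: ttcgaggaggaggagggcgaggacgagGCT

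TUBB2B, chr6:3224988-3225017, minus strand: ttcgaggaggaggagggcgaggacgagGCG

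TUBB3, chr16:90002180-90002209, plus strand: gaggaggagtcggaggcccagggccccAAG

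TUBB4B, chr9:140137976-140138005, plus strand: ttcgaggaggaggctgaggaggaggtgGCC

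TUBB6, chr18:12326097-12326126, plus strand: tttgaggatgaggaagaggagatcgatGGA

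TUBA1C ended in TAT, a tyrosine codon, and TUBA4A ended in GAA, a glutamate codon. All 8 ends shown were rich in the glutamate codons gag and gaa. The first 12 coding bases, which encode the residues that TTC5 reads, fell into few forms. TUBA1A, TUBA1B and TUBA1C began with atgcgtgagtgc, and TUBA4A began with atgcgtgaatgc. TUBB and TUBB4B began with atgagggaaatc, TUBB3 and TUBB6 with atgagggagatc, TUBB2A with atgcgcgagatc and TUBB2B with atgcgtgagatc.

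Over the whole coding sequence, identity ranged from 84.4% to 97.2% among the 6 pairs of alpha members and from 80.9% to 98.1% among the 15 pairs of beta members, against 52.9% to 56.0% between the classes. TUBB2A and TUBB2B were the most alike (98.1%), followed by TUBA1A and TUBA1B (97.2%). Such likeness bears on the counts, because featureCounts, at the settings in the header, leaves out reads that the aligner marked as mapping to several places, and how the aligner marked or placed them could not be checked. Of the 100-base windows of the TUBB2A transcript, 55.6% were also found in transcripts of genes that do not overlap it, most of them of TUBB2B. The same share was 48.7% for TUBB2B, 37.2% for TUBA1B, 18.1% for TUBA1A, 10.5% for TUBA1C and at most 5.42% for the other 5 members, with 0 for TUBA4A and TUBB6. The levels of TUBB2A, TUBB2B and TUBA1B are therefore uncertain relative to the other members.

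Overlapping genes had a similar effect, because a read on exons of several genes was counted to none of them. In the count table, 1571 of the 3574 exon bases of TUBA1B (43.96%) lay under ENSG00000258017, which is named TUBA1B-AS1 and held 20 to 40 counts. These counts do not show how many reads on the shared bases were left out. On GRCh37, TUBA1B-AS1 covered 1182 exon bases (72.6%) of the MANE Select transcript of TUBA1B. TUBB6 shared 837 of 3941 exon bases (21.2%) with AFG3L2 on the opposite strand, which held 4977 to 6184 counts. The MANE Select transcript of TUBB6 shared 0 exon bases with other genes on GRCh37. TUBA4A shared 628 bases with STK16 (1543 to 1783 counts), and the members TUBA1A and TUBA1C shared 345 exon bases with each other. TUBB3 shared 1584 of 7421 exon bases (21.3%) with the readthrough gene ENSG00000198211, which runs on the same strand and was listed at 0 counts. On GRCh37 the same readthrough gene covered 92.8% of the exon bases of the MANE Select transcript of TUBB3, so that the TUBB3 counts rest on few bases of its main transcript.

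The library totals ranged from 39213498 to 53368158 counts. LOC730101 (chromosome 6, 52664366 to 52669155 on GRCh38, listed as ENSG00000216775) was at 47.4 and 50.6 CPM (counts scaled to a common library size with TMM factors) in siControl and at 15.4 and 17.9 in siLOC730101, a log2 fold change of -1.56 (SE 0.12, edgeR adjusted p = 4.34e-06). All 8 luminal prostate markers were expressed, with a summed level of 8170 to 9080 CPM in siControl and 8777 to 8798 CPM in siLOC730101. Of the 4 basal markers, TP63 and KRT5 were at 0 in every library, and the list summed to 0.33 to 0.385 CPM and to 0.292 to 0.632 CPM. Of the 5 stromal and blood markers, COL1A2 and PTPRC were at 0, and the list summed to 11.02 to 14.78 CPM and to 11.03 to 12.22 CPM, nearly all of it COL1A1. Of the 8 neuronal and neuroendocrine markers, CHGA, INSM1 and STMN2 were among those at 0, and the list summed to 60.6 to 68.2 CPM in siControl and to 57.8 to 59.1 CPM in siLOC730101, most of it ENO2. Across all genes tested, the edgeR quasi-likelihood test with Benjamini-Hochberg adjustment called 41 genes higher and 14 lower in siLOC730101 at an adjusted p under 0.05, which is 0.284% of the genes.

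No tubulin isotype gene was called at that threshold (0 of 9), and none had an unadjusted p under 0.05, against 10.8% of all genes tested. Their adjusted p-values ran from 0.531 to 0.998. DESeq2 called 0 of the 7 members to which it gave an adjusted p, against 3.08% of all genes. The log2 fold changes of the 9 members had a median of 0.032, beside -0.0021 over all genes, with 6 above 0 and 3 below. In 4 of the 9 members (TUBA4A and TUBB2A higher, TUBA1C and TUBB3 lower) the siControl and siLOC730101 libraries did not overlap, which is close to the background of 41.7% of all genes. In bulk RNA, fewer cells of a type and less RNA per cell cannot be told apart.

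**Figure D1:**
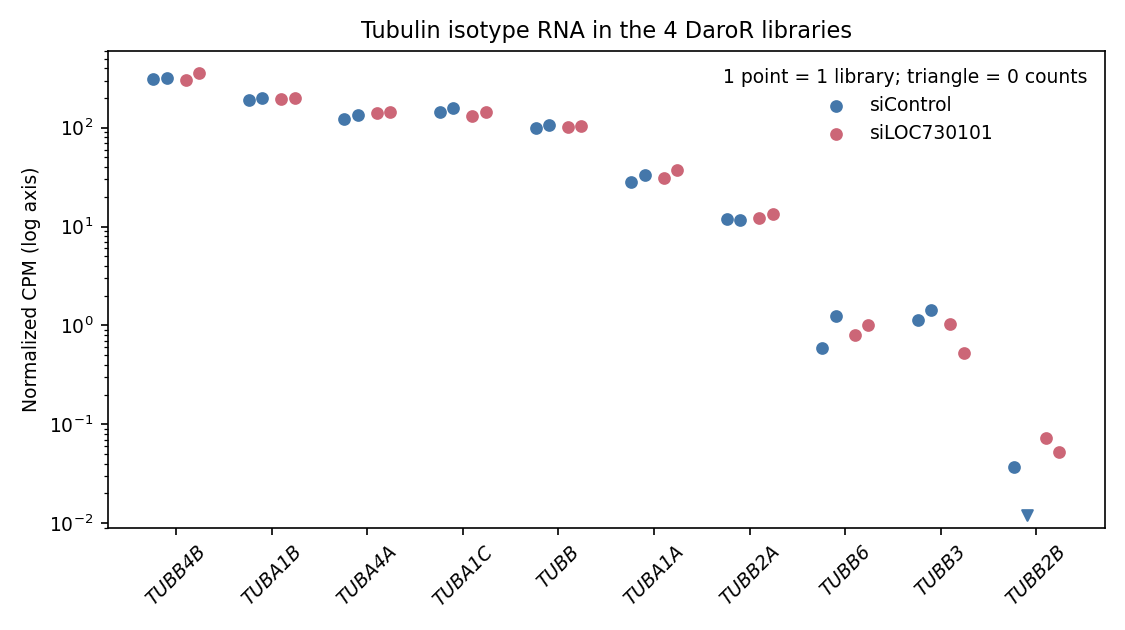
Normalized CPM (log axis) of the 10 tubulin isotype genes, with 1 point for each siControl (blue) and siLOC730101 (red) library and a triangle for a library with 0 counts. Within each gene the points of both groups lie close together from TUBB4B at 306.5 to 354.5 CPM down to TUBB2A at 11.75 to 13.3 CPM, and they spread out for TUBB3, TUBB6 and TUBB2B at under 2 CPM.

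To set the members beside each other, CPM was divided by the exon length of the count table, in kb. By this measure the 4 libraries placed TUBB4B, a widely expressed beta-tubulin, at the top with 157.9 ± 10.9 CPM per kb (SD, n = 4). TUBA1B was the highest alpha-tubulin at 54.7 ± 1.44 CPM per kb. Then came TUBA4A at 36.6 ± 2.78, TUBA1C at 32.4 ± 2.19 and TUBB at 25.2 ± 0.782 CPM per kb. The ranges of TUBA4A and TUBA1C overlapped, and those of the other neighbours among these 5 did not.

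Below this group of 5, TUBA1A stood at 8.55 ± 1.02 CPM per kb and TUBB2A at 4.24 ± 0.231. Both were separated from their neighbours. At the bottom, TUBB6 (0.231 ± 0.070 CPM per kb) and TUBB3 (0.138 ± 0.051) overlapped, and TUBB2B was at 0.0098 CPM per kb. The order was the same per kb of exon not shared with another gene, and it put TUBB3 above TUBB6 when the MANE Select transcript length was used. Neither length is that of the unshared part of the main transcript. On GRCh37, 72.6% of the MANE Select exon bases of TUBA1B and 92.8% of those of TUBB3 lay under other genes, against at most 30.6% for the other members. Whether TUBA1B stands below TUBB4B, and TUBB3 near the bottom, is therefore uncertain. The 5 leading genes held 94.8% to 95.3% of the counts of all members in every library. All members together took 0.0916% and 0.0969% of the counts in siControl and 0.0925% and 0.0969% in siLOC730101.

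Among the alpha-tubulins, TUBA1B (chromosome 12, 49127782 to 49131397 on GRCh38, minus strand) was at 189.0 and 197.3 CPM in the siControl libraries and at 193.8 and 201.1 CPM in the siLOC730101 libraries. The groups interleaved, and the log2 fold change was 0.032 (SE 0.074, 95% interval -0.13 to 0.19, edgeR adjusted p = 0.933). The interval corresponds to 0.916- to 1.14-fold, the narrowest of the members.

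TUBA1A (chromosome 12, 49184686 to 49189080, minus strand), in which mutations cause malformations of the cortex, was at 28.4 and 33.4 CPM in siControl and at 31.2 and 37.6 CPM in siLOC730101. The groups overlapped, and the siLOC730101 mean was above the siControl mean, with a log2 fold change of 0.16 (SE 0.12, 95% interval -0.11 to 0.42, edgeR adjusted p = 0.717).

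TUBA1C (chromosome 12, 49188736 to 49274600, plus strand), whose start overlaps the start of TUBA1A on the opposite strand, held 7809 and 7319 counts in siControl and 5444 in each siLOC730101 library. Scaled to the library totals, these were 144.5 and 156.4 CPM in siControl and 132.5 and 143.4 CPM in siLOC730101. Both siLOC730101 libraries were below both siControl libraries, by little for the closest pair, with a log2 fold change of -0.12 (SE 0.081, 95% interval -0.30 to 0.048, edgeR adjusted p = 0.628).

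TUBA4A (chromosome 2, 219249710 to 219277902, minus strand), an alpha-tubulin whose gene does not encode a terminal tyrosine, was at 121.1 and 135.2 CPM in siControl and at 140.7 and 144.6 CPM in siLOC730101. Both siLOC730101 libraries were above both siControl libraries. It had the smallest unadjusted p of the members, 0.0767, with a log2 fold change of 0.16 (SE 0.082, 95% interval -0.019 to 0.33, edgeR adjusted p = 0.531). Without siControl replicate 1 the log2 fold change was 0.079, and without siControl replicate 2 it was 0.24. Among the 105 other genes of the tubulin and marker lists, those whose centred log2 CPM followed TUBA4A most closely over the 4 libraries were CCT3 (root mean square difference 0.022), a subunit of the chaperonin TRiC, TTLL12 (0.025) and VASH2 (0.042), a vasohibin.

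Among the beta-tubulins, TUBB4B (chromosome 9, 137241287 to 137243707, plus strand) held 16713 and 14794 counts in siControl and 12594 and 13457 in siLOC730101. The normalized levels were 309.2 and 316.1 CPM in siControl and 306.5 and 354.5 CPM in siLOC730101, so that siLOC730101 replicate 1 was the lowest of the 4 libraries and replicate 2 the highest. The log2 fold change was 0.080 (SE 0.080, 95% interval -0.091 to 0.25, edgeR adjusted p = 0.793), and without siLOC730101 replicate 2 it was -0.031.

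TUBB (chromosome 6, 30717435 to 30725538, plus strand) was at 98.5 and 105.3 CPM in siControl and at 101.8 and 105.1 CPM in siLOC730101. The siLOC730101 libraries lay within the siControl range, with a log2 fold change of 0.022 (SE 0.082, 95% interval -0.15 to 0.20, edgeR adjusted p = 0.962).

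TUBB2A (chromosome 6, 3153497 to 3157544, minus strand) was at 11.99 and 11.75 CPM in siControl and at 12.3 and 13.3 CPM in siLOC730101. Both siLOC730101 libraries were above both siControl libraries, with a log2 fold change of 0.11 (SE 0.15, 95% interval -0.22 to 0.44, edgeR adjusted p = 0.878). Its near copy TUBB2B (chromosome 6, 3223324 to 3231730, minus strand) was nearly uncounted, with 2 and 0 counts after siControl and 3 and 2 after siLOC730101. These are at or under 3 counts, the limit that a count of 0 allows, and no fold change is given.

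TUBB3 (chromosome 16, 89921392 to 89938761, plus strand) held 61 and 67 counts after siControl and 42 and 20 after siLOC730101, or 1.13 and 1.43 CPM against 1.02 and 0.527 CPM. Both siLOC730101 libraries were below both siControl libraries, and siLOC730101 replicate 2 was the lowest. Its log2 fold change was the largest in size among the members, -0.72, with the second widest interval (SE 0.53, 95% interval -1.86 to 0.42, edgeR adjusted p = 0.693). Leaving out siLOC730101 replicate 2 gave -0.32, and leaving out replicate 1 of the same group gave -1.27. At these low counts, which rest on few bases of its main transcript, a change of TUBB3 between 0.276- and 1.34-fold could not be told apart from none.

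TUBB6 (chromosome 18, 12307669 to 12344320, plus strand) held 32 and 58 counts after siControl and 33 and 38 after siLOC730101. The siLOC730101 libraries, at 0.803 and 1.001 CPM, lay between the siControl libraries at 0.592 and 1.24 CPM. Its log2 fold change was -0.018 (SE 0.58, 95% interval -1.25 to 1.21, edgeR adjusted p = 0.998), and its sign turned with several settings.

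**Figure D2:**
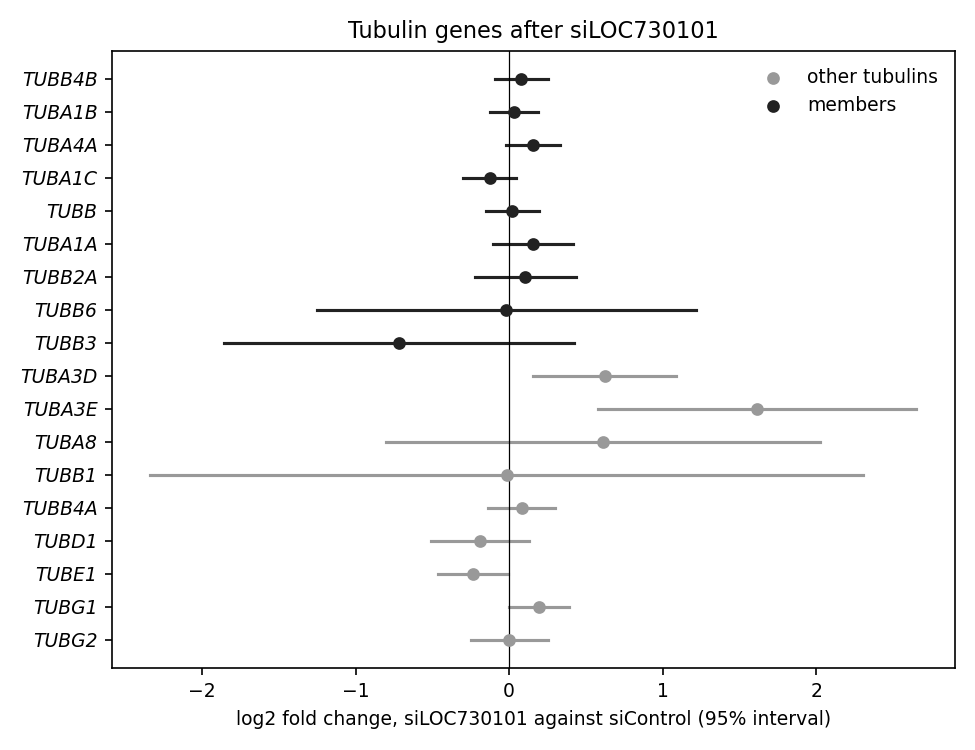
Log2 fold change of siLOC730101 over siControl for the tubulin genes that passed the filter, with 95% intervals from the edgeR fit (isotype genes black, other tubulin genes grey). The intervals of all 9 isotype genes include 0, and they are widest for TUBB3 and TUBB6.

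The summed level of the 4 alpha members was 483.0 and 522.3 CPM in siControl and 498.3 and 526.8 CPM in siLOC730101. That of the 6 beta members was 421.4 and 435.8 CPM in siControl and 422.5 and 474.4 CPM in siLOC730101. In both classes the groups overlapped (two-sided exact permutation p = 0.667 in each, where 2 libraries against 2 cannot go below 0.33). The log2 ratio of the group means was 0.028 for alpha and 0.065 for beta, and with 1 library left out it ran from -0.027 (without siControl replicate 1) to 0.086 for alpha and from -0.021 (without siLOC730101 replicate 2) to 0.15 for beta. The ratio of alpha to beta, per kb of exon, was 0.696 and 0.731 in siControl and 0.723 and 0.671 in siLOC730101. Per kb of exon that no other gene shares, it was 0.955 and 0.998 in siControl and 0.990 and 0.917 in siLOC730101, so that its absolute size depends on the length used.

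The isotype make-up was given as each gene's share of the summed members of its class, per kb of exon. TUBA1B made up 41.4% ± 1.01 of the alpha class in siControl and 41.3% ± 0.499 in siLOC730101 (SD, n = 2 each). TUBA1C made up 25.9% ± 0.0293 in siControl and 23.1% ± 0.410 in siLOC730101, and TUBA4A 26.5% ± 0.601 and 28.8% ± 0.541. At this length the siControl shares of TUBA1C and TUBA4A were nearly level, and in siLOC730101 TUBA4A was the larger. The differences, -2.73 percentage points for TUBA1C and 2.32 for TUBA4A, were larger than the spread between libraries in each group, and the exact permutation p was 0.33, the smallest that 2 libraries against 2 allow. TUBA1A made up 6.18% ± 0.375 and 6.72% ± 0.630. The sizes of these shares depend on the length used. Per kb of unshared exon, a length chosen after seeing the data, TUBA1B made up 50.1% in siControl and 50.1% in siLOC730101. By that length TUBA1C made up 22.7% and 20.3%, and TUBA4A 22.5% and 24.5%.

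The ratio of TUBA1C to TUBA4A counts, which needs no scaling between libraries and was chosen after the values were seen, was 1.19 and 1.16 in siControl and 0.942 and 0.991 in siLOC730101. The groups did not overlap, and the two-sided exact permutation p was again 0.33. Both outcomes were fixed by the CPM values, lower for TUBA1C and higher for TUBA4A without overlap, so the ratio adds no separate support. In the beta class TUBB4B made up 83.9% ± 0.363 in siControl and 84.3% ± 1.01 in siLOC730101. TUBB followed at 13.7% ± 0.367 and 13.2% ± 0.904, and TUBB2A at 2.23% ± 0.0759 and 2.29% ± 0.0830. These beta shares differed between the groups by less than the spread between the siLOC730101 libraries. They leave out TUBB4A, a beta-tubulin that is not a member. It ranged from 11.05 to 12.07 CPM per kb over the libraries, above TUBB2A at 4.04 to 4.57. TUBB3 made up 0.0941% and 0.0556%, and TUBB6 0.126% and 0.119%. The share of TUBB3 rests, like its counts, on few bases of its main transcript and is therefore uncertain.

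**Figure D3:**
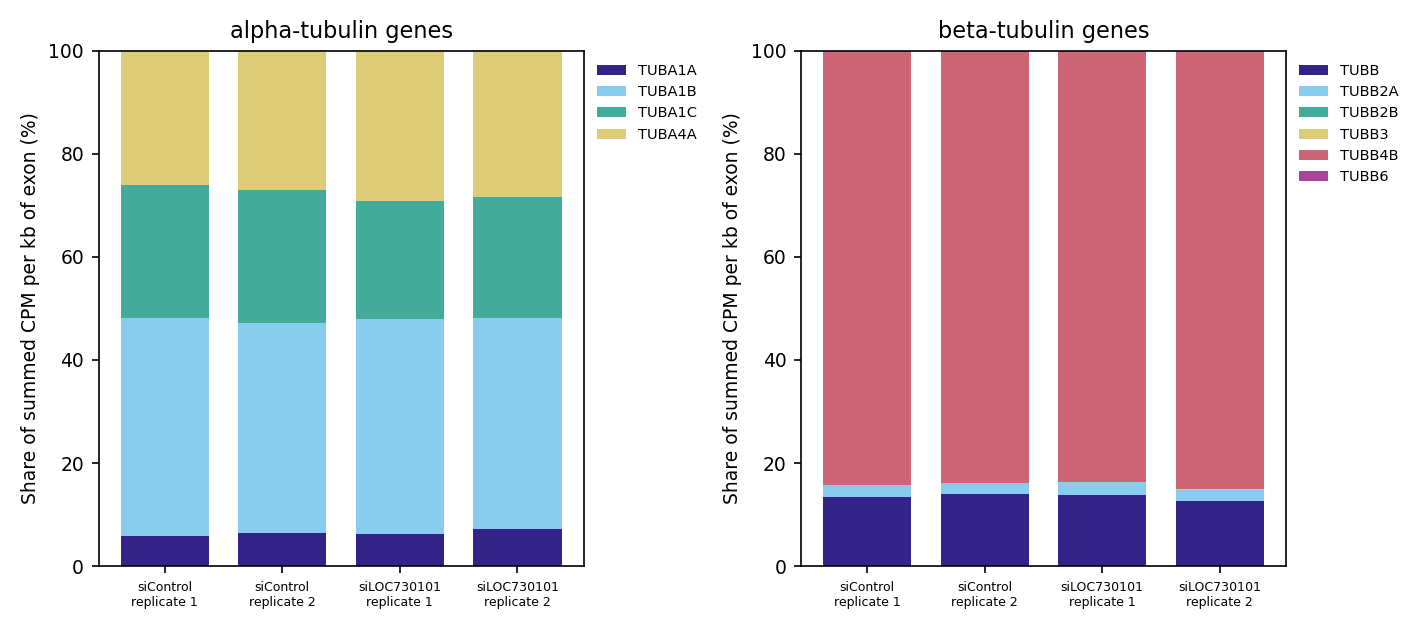
Stacked bars of the share (%) of each member in the summed CPM per kb of exon of its class, 1 bar per library, with the 4 alpha-tubulin genes on the left and the 6 beta-tubulin genes on the right. The TUBA1C part is smaller and the TUBA4A part larger in the siLOC730101 bars, and TUBB4B fills over 80% of every beta bar.

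Of the 12 other tubulin genes listed, 9 passed the filter, and none was called (0 of 9, against 0.284% of all genes). Their median log2 fold change was 0.082, and 4 had an unadjusted p under 0.05, against 10.8% of all genes. TUBA3E, an alpha-tubulin, had the largest difference, with 42 and 26 counts in siControl and 110 and 54 in siLOC730101 (log2 fold change 1.62, SE 0.49, edgeR adjusted p = 0.182). The closely related TUBA3D was at 6.86 and 4.70 CPM in siControl and at 8.49 and 9.35 CPM in siLOC730101 (log2 fold change 0.62, SE 0.22, edgeR adjusted p = 0.272). In both genes the siLOC730101 libraries were above the siControl libraries. Windows shared with other genes were counted only for the isotype members, so how likeness bears on the counts of TUBA3D and TUBA3E was not tested. Without siControl replicate 1, which was the higher of the siControl libraries, the log2 fold change of TUBA3D was 0.93. Without siControl replicate 2 it was 0.38, and without siLOC730101 replicate 2 it was 0.55.

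TUBG1, the gamma-tubulin that seeds microtubules at the centrosome, was at 89.6 and 87.5 CPM in siControl and at 93.1 and 110.0 CPM in siLOC730101 (log2 fold change 0.20, SE 0.092, edgeR adjusted p = 0.455). Without siLOC730101 replicate 1 its log2 fold change was 0.32, and without siLOC730101 replicate 2 it was 0.070. TUBE1, an epsilon-tubulin of centrioles, was at 39.7 and 39.8 CPM in siControl and at 36.0 and 31.4 CPM in siLOC730101 (log2 fold change -0.24, SE 0.11, edgeR adjusted p = 0.443). The remaining 5 had adjusted p-values of 0.718 or more, with log2 fold changes of -0.19 for TUBD1, 0.61 for TUBA8, 0.082 for TUBB4A, 0.0025 for TUBG2 and -0.015 for TUBB1. TUBA8 was under 1 CPM in every library. TUBA3C, TUBAL3 and TUBB8 did not pass the filter.

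The genes that fold, modify, seed, bind and take apart tubulin were followed in 6 further lists of 78 genes, of which 75 were tested. None was called by edgeR (0 of 75, against 0.284% of all genes), and 7 had an unadjusted p under 0.05, 6 higher and 1 lower, against 10.8% of all genes. Their median log2 fold change was 0.042. DESeq2 called 1 of the 63 to which it gave an adjusted p, against 3.08% of all genes. The groups did not overlap for 37 of the 75, 20 higher and 17 lower, against 41.7% of all genes.

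The tubulin cofactors and the autoregulation factor TTC5 had the highest median of these lists, 0.163, with 7 of 8 genes above 0 and 4 with an unadjusted p under 0.05, against 10.8% of all genes. The cofactors TBCA to TBCE, with the small GTPase ARL2, assemble the folded subunits into dimers. TBCD was at 128.2 and 135.0 CPM in siControl and at 150.8 and 162.0 CPM in siLOC730101 (log2 fold change 0.25, edgeR adjusted p = 0.215). TBCA was at 119.5 and 123.5 CPM in siControl and at 132.9 and 156.5 CPM in siLOC730101 (0.25, adjusted p = 0.270). In TBCA, TBCB, TBCD and ARL2, siLOC730101 replicate 2 was the highest of the 4 libraries. The log2 fold change was highest for ARL2, 0.28 (adjusted p = 0.420), followed by TBCB, 0.27 (0.302), and lowest for TBCE, -0.18 (0.555). Leaving out siLOC730101 replicate 2 gave 0.066 for ARL2 (0.987), and leaving out replicate 1 gave 0.48 (0.0028). TTC5, which reads the first residues of new tubulins, was at 28.4 and 31.0 CPM in siControl and at 30.4 and 32.3 CPM in siLOC730101, and its groups overlapped. Without siLOC730101 replicate 1, 4 of these 8 genes passed an adjusted p of 0.05, at a setting that called 923 genes higher and 272 lower over the whole table, and without siLOC730101 replicate 2 none did (0 of 8).

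Prefoldin and TRiC, which fold the nascent subunits, had a median log2 fold change of 0.094 over 14 genes. PFDN6 was the highest of them at 0.40 (SE 0.15, edgeR adjusted p = 0.291) and PFDN5 the lowest at -0.22 (0.856). PFDN6 was at 0.18 when siLOC730101 replicate 2 was left out and at 0.60 when replicate 1 was. Of the 21 genes that add or remove tyrosine, glutamate, glycine or acetyl groups, 20 were tested, with a median of 0.051. The deglutamylases AGBL4 (0.40, adjusted p = 0.852) and AGBL3 (-0.47, adjusted p = 0.461) stood at the ends. Tubulin tyrosine ligase, TTL, was at 53.2 and 58.5 CPM in siControl and at 61.7 and 57.6 CPM in siLOC730101 (0.095, adjusted p = 0.790), and its groups overlapped.

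The gamma-tubulin ring complex, which seeds new microtubules, had a median log2 fold change of 0.054 over 9 genes. Its member MZT2A was at 61.0 and 62.1 CPM in siControl and at 74.6 and 93.1 CPM in siLOC730101. Both siLOC730101 libraries were above both siControl libraries, with siLOC730101 replicate 2 well above replicate 1. The log2 fold change was 0.45 (SE 0.10), with an edgeR adjusted p of 0.0920, which was 0.0371 with the counts halved, and a DESeq2 adjusted p of 0.0100. Without siLOC730101 replicate 2 the log2 fold change was 0.27, and without siLOC730101 replicate 1 it was 0.61. TUBGCP3, a core subunit of the complex, was the lowest at -0.23 (adjusted p = 0.522).

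Proteins that bind the microtubule lattice and its ends had a median of -0.016 over 16 genes, from 0.13 for the end-binding gene MAPRE3 to -0.57 for MAP1A (edgeR adjusted p = 0.516). Proteins that destabilize or sever microtubules had a median of -0.065 over the 8 of 10 genes tested, from 0.087 for the severing enzyme spastin (SPAST) to -0.25 for fidgetin (FIGN). In neither list did a gene have an unadjusted p under 0.05.

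**Figure D4:**
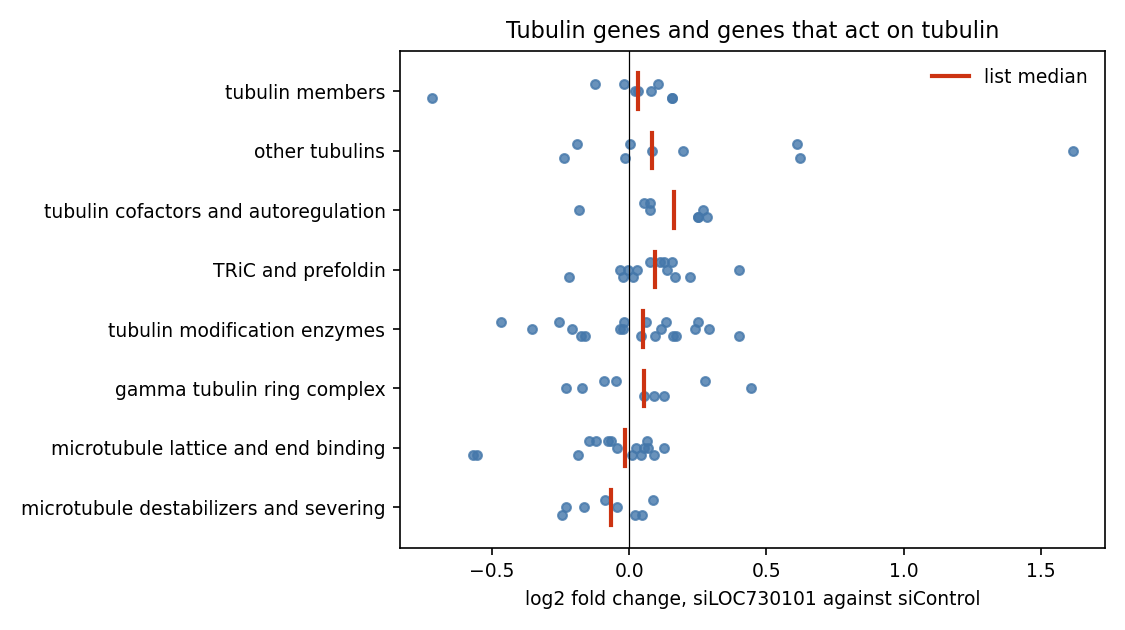
Log2 fold change of siLOC730101 over siControl for each tested gene of the tubulin and microtubule lists, with 1 point per gene and a red line at the median of each list. The list medians lie between -0.065 and 0.163, with the tubulin cofactor list highest and the destabilizer list lowest.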

How the data were processed

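RNA was measured in 2 siControl and 2 siLOC730101 libraries of DaroR cells. The authors deposited whole-number counts per gene, made with featureCounts 2.0.1 on exons by gene name with gencode version 41 on hg38, per the file headers. The same table gives exon length in bases and coordinates. The paper's methods name STAR and hg19, and the submitters' processing notes name BWA and hg38, so the aligner cannot be settled. The command names no strand, paired-end, multi-mapping or overlap option, so mates may have been counted apart (66.0% to 70.1% of low counts were even), and reads on several genes, or marked as multi-mapping, were not counted. No sample columns were unused (0). The libraries of a group differed beyond counting noise (chi-square per degree of freedom 10.74 in siControl and 13.17 in siLOC730101), so each was used as 1 replicate.

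The count test was edgeR 4.0.16 in R 4.3.3 (filterByExpr, TMM, glmQLFit and glmQLFTest, condition only, Benjamini-Hochberg over 19349 genes), with DESeq2 1.42.0 as an alternative. Scripts were tested on simulated data. Intervals cover 95%. Sequences came from GRCh37 with GENCODE release 44 lifted to it (Biopython 1.88, Python 3.11.15), and RefSeq placed LOC730101. The coding ends of 2 members and the values of 1 marker are not reported here. Named were all members, other tubulins that passed the filter, called genes or the extremes of each list, overlapping genes, and the 3 genes closest to TUBA4A. TTC5, TTL, TBCA, TBCB, TBCD and MZT2B were named after their values were seen. The members and lists were chosen with earlier results of these data known. Alternatives changed scaling, filter, test, replicate block, halved counts and left out each library.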

Additional observations from a re-analysis of the deposited data

How the results depend on the processing

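No tubulin isotype gene passed an adjusted p of 0.05 under any alternative run, and the lowest adjusted p was 0.119 (TUBB4B, without siLOC730101 replicate 1). TUBA1A, TUBA1B, TUBA1C, TUBA4A, TUBB2A and TUBB3 kept their sign throughout, but with 1 library left out TUBA1A ran from 0.013 (without siLOC730101 replicate 2) to 0.29 (without siLOC730101 replicate 1), TUBA1B from 0.0020 to 0.067, TUBA1C from -0.19 (without siLOC730101 replicate 2) to -0.060 (without siLOC730101 replicate 1) and TUBB2A from 0.048 (without siLOC730101 replicate 2) to 0.17 (without siLOC730101 replicate 1). The log2 fold change of TUBB was -0.0094 with upper-quartile factors and -0.024 to 0.073 with 1 library left out, and that of TUBB4B was -0.031 to 0.19. That of TUBB6 was 0.0083 with the legacy method off, 0.056 with the replicate block and -0.46 to 0.61 with 1 library left out. Of the other genes, TUBB1 was 0.25 with the replicate block and -0.69 to 0.084 with 1 library left out, TUBG2 was -0.00050 with DESeq2 size factors, -0.028 with upper-quartile factors, -0.0018 with at least 1 count in all, -0.0025 with counts halved and -0.064 to 0.071 with 1 library left out, MAPRE3 was -0.030 to 0.31, and FIGN was -0.71 to 0.42. The share difference, in percentage points, was -0.94 for TUBA1B, -3.04 for TUBA1C and 1.61 for TUBA4A with every other tubulin of the class added, and -2.36 for TUBA1C per kb of unshared exon, a setting chosen after seeing the data; with 1 library left out it was -0.84 to 0.58, -3.02 to -2.44 and 1.90 to 2.74. Genes called over the whole table numbered 324 higher and 113 lower with at least 1 count in all, 233 and 64 with DESeq2, 87 and 24 with the legacy method off, 485 and 167 with the replicate block, and 77 to 923 and 26 to 272 with 1 library left out. Of the lists, the gamma-tubulin ring complex had 1 call with at least 1 count in all, with DESeq2 and with the replicate block (MZT2A in each, which also passed with the counts halved, adjusted p = 0.0371), and 0 to 2 with 1 library left out. The cofactors had 2 with the replicate block and 0 to 4 with 1 library left out, TRiC and prefoldin 0 to 3, and the lattice-binding genes, the destabilizers and the other tubulins 0 to 1 each. The causes were not tested. The deviations of same-numbered libraries correlated at 0.062 over 12770 genes, so the numbers were not used to pair them. Low counts limit TUBB3, TUBB6 and TUBB2B, and counts cover counting error only.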

Other observations

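Pseudogenes of the tubulin family were also present in the count table, and those named here were chosen after their values were seen. TUBG1P, a pseudogene named for TUBG1 (chromosome 7, 43918697 to 43920054 on GRCh38), held 158 and 87 counts in siControl and 26 in each siLOC730101 library. Both siLOC730101 libraries were below both siControl libraries, with a log2 fold change of -1.86 (SE 0.44, edgeR adjusted p = 0.102). TUBG1 itself lay on the other side of 0, at 0.20. TUBBP5 held 504 and 441 counts in siControl and 429 and 403 in siLOC730101 (log2 fold change 0.17, edgeR adjusted p = 0.792), and TUBA5P held 638 and 500 against 488 and 449 (0.076, 0.924). Neither was called.

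TUBA3D and TUBA3E each lie beside a gene of the gamma-tubulin ring complex. TUBA3D (chromosome 2, 131476119 to 131482934 on GRCh38, plus strand) lies within the span of MZT2A (131464900 to 131492743, minus strand) without sharing exon bases with it, and TUBA3E (130191745 to 130198439, minus strand) lies 1015 bases from the end of MZT2B, with its 3′ side toward it (130181737 to 130190729, plus strand). The log2 fold changes were 0.62 for TUBA3D and 0.45 for MZT2A, and 1.62 for TUBA3E and 0.28 for MZT2B (edgeR adjusted p = 0.495). MZT2B was at 35.0 and 35.6 CPM in siControl and at 35.1 and 50.5 CPM in siLOC730101. Its groups overlapped, and siLOC730101 replicate 2 alone stood apart. MZT2B also shared 519 of 1519 exon bases (34.2%) with SMPD4, which held 4302 to 6158 counts. The counts do not separate the strands, and how far reads from 1 gene of a pair entered the other was not tested.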
